A study of Mus musculus with 8 samples.

Results

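The 62 genes described here are the caspases, the Bcl2 family, the inhibitor-of-apoptosis (Birc) genes, the TNF receptors and ligands and the Traf adaptors, compared between denervated and innervated muscle of the mouse hind leg. They were taken by gene symbol, not by their values, from 14860 genes with a probe set of a single annotated symbol: 9 caspase symbols, 16 Bcl2 family symbols, 3 Birc genes, 17 TNF receptors, 10 TNF ligands and 7 Traf symbols. Each had 1 probe set. The symbol patterns themselves were chosen with earlier results of these data known. The denervated group is the tibialis anterior, a mainly fast-fibre muscle that lifts the foot, of C57BL/6 males 8 weeks old, taken 7 days after transection of the left sciatic nerve (4 arrays). The innervated group is the opposite muscle from mice of the same strain, sex and age, also taken 7 days after that operation (4 arrays). Mice of both groups had therefore been operated on, and there was no sham-operated leg. Casp8ap2, Traf3ip2 and Traf3ip3 encode partners of a caspase or of Traf proteins and came in by their symbols. Bnip1, Bnip2, Bnip5 and Bnipl were likewise counted with the Bcl2 family by their symbols. Bax and Birc2 are not analysed here, and 7 probe sets annotated with several symbols, among them those for Tnfsf12, were left out.

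Caspases are proteases that cut other proteins after aspartate. Initiator caspases are switched on by death receptors of the TNF family or by mitochondria, executioner caspases dismantle the cell, and inflammatory caspases process cytokines or open pores in the membrane. Bcl2 proteins set whether the outer mitochondrial membrane is permeabilized. TNF receptors with a death domain can lead to caspase activation, while Traf adaptors and the Birc ubiquitin ligases couple many TNF receptors to NF-kappaB and MAP kinases. In skeletal muscle of mice these genes have been studied as mediators of atrophy, above all Tnfrsf12a, which encodes the TWEAK receptor Fn14. Multinucleate fibres can lose material without the whole fibre dying.

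Values are log2 intensities, so a difference of 1 is a doubling. Each change is given as denervated minus innervated mean, with the standard error of the limma fit, and a gene rose or fell where the Benjamini-Hochberg adjusted p over all 14860 genes was under 0.05. All 11 measured muscle fibre markers lay above the upper quartile of every array. The arrays of replicate 3 stood apart from the rest. Over genes, the correlation of denervated 3 with its group was 0.929 to 0.933, against 0.980 to 0.987 among the other arrays, and that of innervated 3 was 0.966 to 0.967, against 0.981 to 0.986. Denervated 3 also held some lymphocyte and other leukocyte markers at levels that no other array showed. The pan-leukocyte gene Ptprc read 9.34 there against 5.97 to 6.10 on the other denervated arrays, the B-cell gene Ms4a1 7.45 against 3.85 to 3.95, and the T-cell gene Cd3g 7.39 against 3.56 to 4.00. Of 20 measured leukocyte markers 18 were highest on denervated 3 among the denervated arrays. The exceptions were the B-cell gene Cd79a, at 4.97 there against 5.35 on denervated 2 and 4, and S100a8, at 8.98 against 9.39 on denervated 2. For these reasons results are also given without replicate 3.

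Of the 62 members 5 rose (8.06%), against 3.56% of all genes tested: Casp4, Birc3, Tnfrsf12a, Tnfsf9 and Traf2. None fell (limma), against 4.89% of all genes, and 8.45% of all genes passed in either direction. At an unadjusted p under 0.05, 8 members were higher (12.9%, against 10.2% of all genes) and 3 lower (4.84%, against 11.5%). The median change was 0.04 over the members and -0.01 over all genes, and the median size of a change 0.14 in each. In all, 57 of the 62 changes (91.9%) lay between -0.5 and 0.5, as did 89.7% of those of all genes. The 95% interval lay within -1 to 1 for 59 members, the exceptions being Casp4, Birc3 and Casp1, and within -0.5 to 0.5 for 36. Denervated and innervated arrays did not overlap for 7 members that were higher, namely Casp4, Birc3, Tnfsf9, Traf2, Casp1, Bbc3 and Tnfrsf1a (11.3%, against 5.32% of all genes), and for Bnip2 and Tnfrsf19, which were lower (3.23%, against 7.4%). Without replicate 3, 5 members rose, against 5.8% of all genes, and none fell, against 5.26%: Tnfsf9 missed the threshold and Tnfrsf21 passed it.

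**Figure D1:**
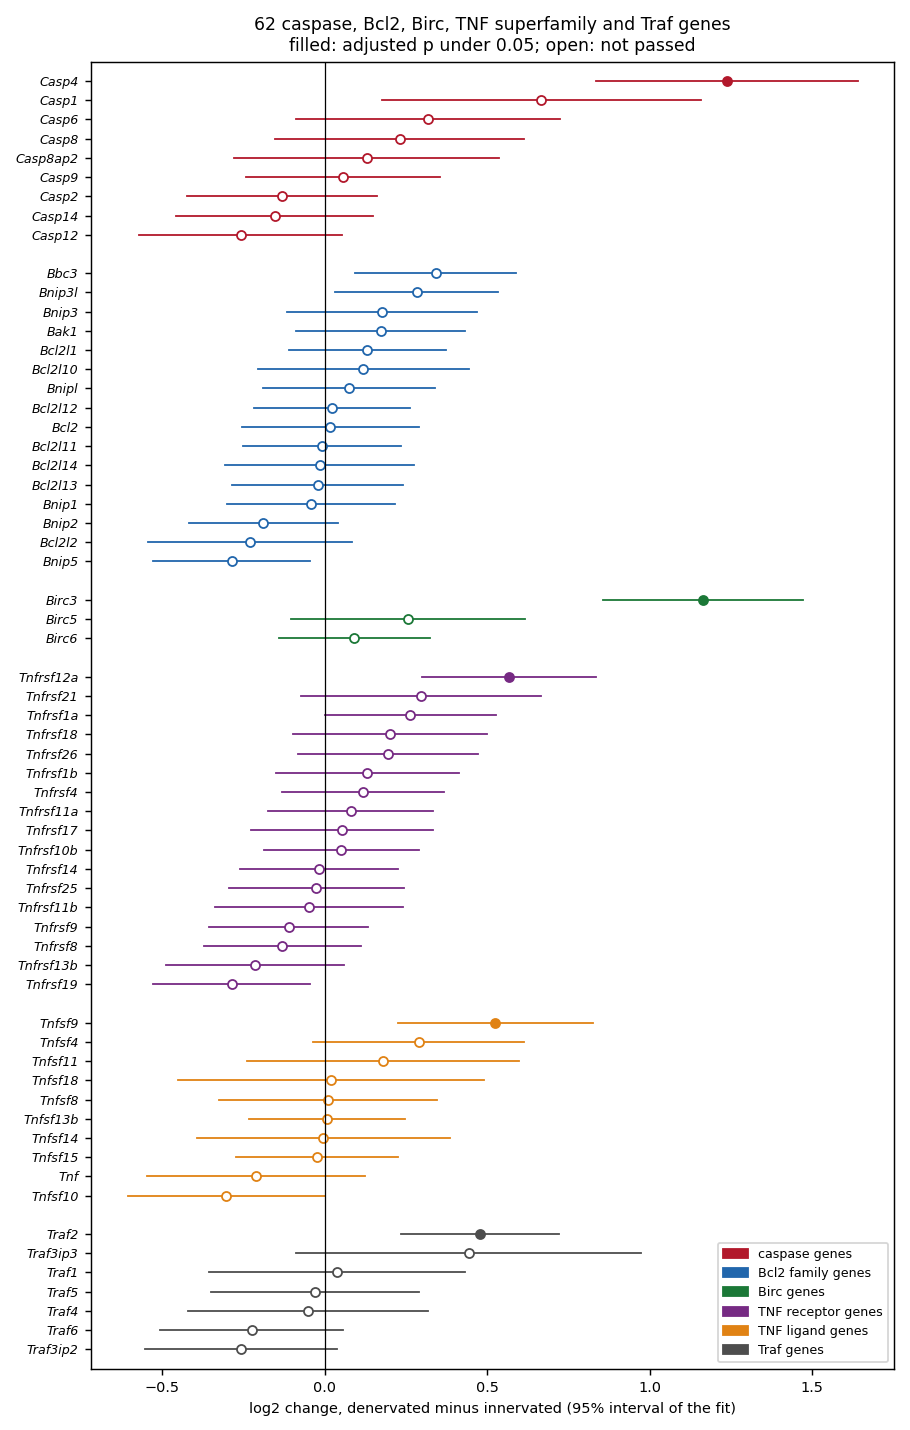
Log2 change of each of the 62 members by family, denervated minus innervated, with the 95% interval of the limma fit over 4 arrays per group. Filled points passed an adjusted p of 0.05 (Casp4, Birc3, Tnfrsf12a, Tnfsf9 and Traf2, from 0.48 to 1.24), and the other members lie between -0.30 and 0.67.

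Casp4 encodes mouse caspase-11, an inflammatory caspase that senses bacterial lipopolysaccharide in the cytosol and cuts gasdermin D. It read 7.58, 6.75, 7.17 and 7.20 in denervated muscles 1 to 4, against 6.15, 6.12, 5.97 and 5.51 in innervated muscles 1 to 4. Every denervated array was above every innervated array. Its change of 1.24 (SE 0.17, 2.36-fold, limma adjusted p = 0.00597) was the largest among the members, with group means of 7.17 ± 0.34 in denervated and 5.94 ± 0.30 in innervated muscle (SD, n = 4 each). Birc3 encodes cIAP2, a ubiquitin ligase that binds Traf2. It read 7.76, 6.85, 7.36 and 7.53 in denervated muscles, against 6.30, 6.04, 6.27 and 6.22 in innervated muscles, again with no overlap. Birc3 rose by 1.16 (SE 0.13, 2.24-fold, limma adjusted p = 0.00269). Without replicate 3 the changes were 1.25 for Casp4 and 1.19 for Birc3 (limma adjusted p of 0.00977 and 0.00376). Casp4 missed the threshold without replicate 1 (limma adjusted p = 0.0563).

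The other members that rose did so by less than 1.5-fold. Tnfrsf12a read 6.67, 6.98, 6.41 and 6.70 in denervated muscles, against 5.84, 6.61, 5.85 and 6.18 in innervated muscles. The groups overlapped, since innervated 2 lay above denervated 3, but each denervated array was above the innervated array of its number, by 0.37 to 0.83. Its change was 0.57 (SE 0.11, 1.48-fold, limma adjusted p = 0.0241). Traf2, an adaptor for TNF receptors that recruits Birc ligases, read 6.19, 5.90, 5.95 and 6.17 in denervated muscles, against 5.78, 5.36, 5.60 and 5.55 in innervated muscles. All 4 denervated arrays were above all 4 innervated arrays, and the change was 0.48 (SE 0.10, 1.39-fold, limma adjusted p = 0.0327). Tnfsf9, the ligand of the T-cell costimulator 4-1BB, read 4.87, 4.31, 4.71 and 4.27 in denervated muscles, against 4.00, 4.07, 4.13 and 3.85 in innervated muscles. It rose by 0.53 (SE 0.13, 1.44-fold, limma adjusted p = 0.0484), with no overlap, but it was dim: its levels were under every array's lower quartile, which ranged from 4.98 to 5.36, where intensities may not be above background. Without the replicate number as a block, Tnfrsf12a, Tnfsf9 and Traf2 missed the threshold (limma adjusted p of 0.137, 0.0900 and 0.0655), which left 2 members higher, against 2.19% of all genes, and none lower, against 3.19%. They also missed it without replicate 1, 2 or 4 (0.0536 to 0.204), and Tnfsf9 without replicate 3 as well (0.0691).

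**Figure D2:**
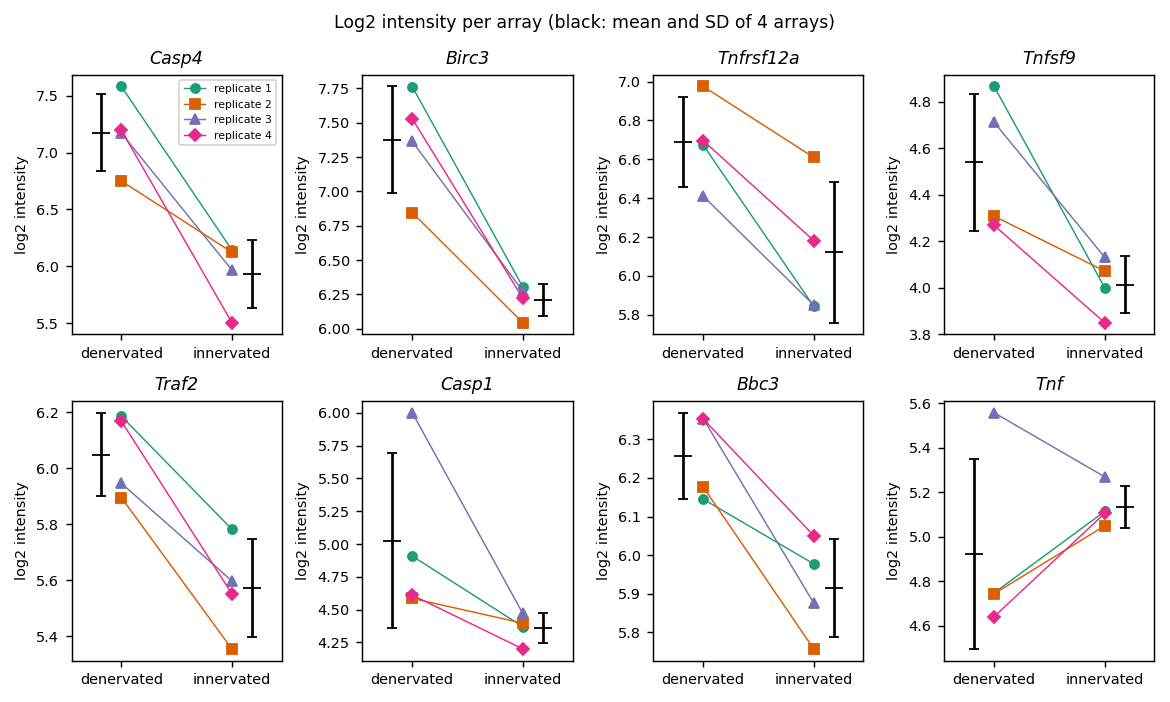
Log2 intensity on each array of 8 members, with lines joining denervated and innervated arrays of the same replicate number; black marks give mean and SD of 4 arrays. Casp4, Birc3, Tnfsf9, Traf2, Casp1 and Bbc3 are higher in every denervated array than in any innervated array. Denervated 3 is the high point for Casp1 (6.00) and Tnf (5.56).

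Casp4, Birc3, Tnfrsf12a and Traf2 are the members that rose and have a promoter window in RefSeq (GRCm38.p6). The windows are shown because these genes moved in the same direction. Each line gives 250 bases before to 50 bases after an annotated transcription start, 5′ to 3′ on the strand of the gene. Capitals mark 1 of the 3 motifs searched in each window: the NF-kappaB consensus in Casp4 (chr9:5308599-5308898, plus strand), the E-box CANNTG in Birc3, at -127 and -21 (chr9:7873121-7873420, minus strand) and the GC box GGGCGG in Tnfrsf12a (chr17:23677400-23677699, minus strand) and Traf2 (chr2:25546891-25547190, minus strand), on either strand.
Casp4: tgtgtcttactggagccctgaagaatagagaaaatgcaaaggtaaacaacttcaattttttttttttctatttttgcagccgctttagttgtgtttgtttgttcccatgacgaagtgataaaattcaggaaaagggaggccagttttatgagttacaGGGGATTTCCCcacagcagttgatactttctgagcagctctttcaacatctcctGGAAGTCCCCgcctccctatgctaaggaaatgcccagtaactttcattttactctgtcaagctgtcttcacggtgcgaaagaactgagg
Birc3: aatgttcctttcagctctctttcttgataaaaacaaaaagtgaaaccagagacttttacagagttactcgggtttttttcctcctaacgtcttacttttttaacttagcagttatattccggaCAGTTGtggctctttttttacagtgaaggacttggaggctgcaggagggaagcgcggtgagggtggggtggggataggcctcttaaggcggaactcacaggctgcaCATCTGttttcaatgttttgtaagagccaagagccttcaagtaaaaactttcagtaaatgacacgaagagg
Tnfrsf12a: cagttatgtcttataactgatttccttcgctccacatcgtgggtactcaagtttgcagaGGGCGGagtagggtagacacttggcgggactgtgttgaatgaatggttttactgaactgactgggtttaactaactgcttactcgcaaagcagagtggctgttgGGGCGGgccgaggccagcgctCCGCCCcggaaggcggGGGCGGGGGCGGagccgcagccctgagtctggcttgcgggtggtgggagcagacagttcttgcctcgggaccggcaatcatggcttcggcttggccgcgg
Traf2: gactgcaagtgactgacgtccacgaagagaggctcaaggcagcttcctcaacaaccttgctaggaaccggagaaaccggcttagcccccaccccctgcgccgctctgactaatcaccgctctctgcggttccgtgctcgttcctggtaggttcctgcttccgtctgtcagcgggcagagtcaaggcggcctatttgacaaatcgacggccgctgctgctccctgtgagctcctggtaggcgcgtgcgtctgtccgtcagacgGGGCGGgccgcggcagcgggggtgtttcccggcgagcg
Casp4 has 2 windows, of which only 1 is shown. The window shown held 3 matches to the NF-kappaB consensus, of which 2 overlap, with first bases at -93, -92 and -39 from the start. None of the other windows shown held these letters. The consensus was found in 8.46% of all 32851 windows and in 13.8% of the 65 member windows. Those lie in 8 of the 53 member genes that have a window. The Tnfrsf12a window held 5 GC boxes and that of Traf2 held 1. This motif was present in 35.7% of all windows and in 50.8% of member windows (29 of the 53 member genes). The E-box, the core site of MyoD-type factors, occurred in all 4 windows shown. It was in 72.3% of all windows and in 73.8% of member windows (41 of the 53 member genes). These matches describe letters in a window and were not tested for binding or function.

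Among the TNF ligands, Tnfsf9 rose, the only 1 of 10 to do so, and no ligand fell (3.56% and 4.89% of all genes). At an unadjusted p under 0.05, Tnfsf9 was higher and Tnfsf10 was lower. The median change of the ligands was 0.01. Tnf itself, the archetypal cytokine of the family, read 4.75, 4.74, 5.56 and 4.64 in denervated muscles, against 5.11, 5.05, 5.27 and 5.10 in innervated muscles. Denervated 3 was above every innervated array, and the other denervated arrays were below all of them. Its change was -0.21 (SE 0.14, limma adjusted p = 0.483), and -0.38 without replicate 3 (limma adjusted p = 0.0636). Tnfsf10, which encodes the death ligand TRAIL, had a change of -0.30 (SE 0.13, limma adjusted p = 0.230) and -0.19 without replicate 3. Tnfsf4, the OX40 ligand, had 0.29, and Tnfsf11, the osteoclast factor RANKL, had 0.18, and -0.02 without replicate 3. The remaining ligand genes Tnfsf8, Tnfsf13b, Tnfsf14, Tnfsf15 and Tnfsf18 had changes between -0.02 and 0.02. Without replicate 3 Tnfsf18 had 0.27, Tnfsf14 -0.19 and Tnfsf8 -0.13, none of them past the threshold. Of the 10 ligands 4 were dim, namely Tnfsf4, Tnfsf8, Tnfsf9 and Tnfsf18.

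Tnfrsf12a rose among 17 TNF receptors, and none fell (3.56% and 4.89% of all genes). Their median change was 0.05. Tnfrsf12a and Tnfrsf19 alone among them passed an unadjusted p under 0.05, Tnfrsf19 as lower. Among the receptors with a death domain, Tnfrsf1a, the main receptor of TNF, read 6.66, 6.66, 6.49 and 6.61 in denervated muscles, against 6.18, 6.30, 6.42 and 6.46 in innervated muscles. The groups did not overlap, but the change of 0.26 (SE 0.11) missed the threshold (limma adjusted p = 0.231). Tnfrsf21, the death receptor DR6, read 7.96, 7.57, 6.91 and 7.94 in denervated muscles, against 7.47, 7.18, 7.20 and 7.34 in innervated muscles. On the arrays of replicate 3 the denervated muscle was the lower, by 0.29, and in the other pairs it was the higher, by 0.38 to 0.60. The change of Tnfrsf21 was 0.30 (limma adjusted p = 0.348), and it rose by 0.49 without replicate 3 (limma adjusted p = 0.0291) and by 0.45 with array weights (0.0387). Tnfrsf10b, the mouse TRAIL receptor, had a change of 0.05 with a 95% interval of -0.19 to 0.29, and Tnfrsf25 one of -0.03 with an interval of -0.30 to 0.24. Tnfrsf1b, the second TNF receptor, which has no death domain, had a change of 0.13 (95% interval -0.15 to 0.41).

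Receptors without a death domain other than Tnfrsf12a had changes between -0.29 and 0.20. Tnfrsf19, the receptor Troy, gave the lowest, at -0.29 (SE 0.10, limma adjusted p = 0.156). It read 5.61, 5.39, 5.51 and 5.62 in denervated muscles, against 5.76, 5.83, 5.79 and 5.90 in innervated muscles, with no overlap. Tnfrsf9, the receptor of the Tnfsf9 ligand, had a change of -0.11 (95% interval -0.36 to 0.13). Tnfrsf11a, the receptor of RANKL, had 0.08, and its decoy Tnfrsf11b, osteoprotegerin, -0.05. The mainly lymphocyte receptors Tnfrsf4, Tnfrsf8, Tnfrsf13b, Tnfrsf14, Tnfrsf17 and Tnfrsf18 lay between -0.21 and 0.20, and Tnfrsf26 had 0.19.

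Of the 7 genes with a Traf symbol, Traf2 rose and none fell (3.56% and 4.89% of all genes). No other gene with a Traf symbol passed even an unadjusted p under 0.05. The median change was -0.03, with -0.18 without replicate 3 and 0.11 without replicate 2. Traf6, a ubiquitin ligase of the interleukin-1 and Toll-like receptor pathways, read 6.51, 6.20, 6.41 and 6.58 in denervated muscles, against 6.51, 6.74, 6.56 and 6.80 in innervated muscles. The groups overlapped, and its change was -0.23 (SE 0.12, 95% interval -0.51 to 0.06, limma adjusted p = 0.346). Traf3ip2, an adaptor of the interleukin-17 receptor, had the lowest change, -0.26 (limma adjusted p = 0.301). Traf3ip3 read 5.25, 5.76, 7.09 and 5.71 in denervated muscles, against 5.39, 5.54, 5.71 and 5.41 in innervated muscles. The high value was that of denervated 3, the array with high lymphocyte markers and the narrowest spread of intensities. Its change was 0.44 (SE 0.23, limma adjusted p = 0.325), and 0.13 without replicate 3. Traf1 likewise read 6.16 on denervated 3 and 4.91 to 5.07 on the other denervated arrays, with a change of 0.04, and -0.18 without replicate 3. Traf4 had a change of -0.05, and -0.21 without replicate 3, and Traf5 had -0.03 in both.

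Besides Birc3, the Birc genes were Birc5, which encodes survivin, a protein of dividing cells, and Birc6, a large ubiquitin-conjugating enzyme. Neither passed the threshold. Birc5 ranged from 4.73 to 5.85 in denervated muscles, against 4.72 to 5.37 in innervated muscles. In both groups the array of replicate 3 was the highest, the groups overlapped and the change was 0.26 (SE 0.15, limma adjusted p = 0.416). Birc6 had a change of 0.09 with a 95% interval of -0.14 to 0.32.

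Of the 9 caspase symbols Casp4 rose and none fell (3.56% and 4.89% of all genes). Their median change was 0.13, but -0.02 without replicate 3 and 0.25 without replicate 1. Casp1, the protease that matures interleukin-1 beta, read 4.91, 4.59, 6.00 and 4.61 in denervated muscles, against 4.37, 4.40, 4.47 and 4.20 in innervated muscles. All denervated arrays lay above all innervated arrays, with denervated 3 the highest. Casp1 was dim, its mean lying under every array's lower quartile. Its change was 0.67 (SE 0.21, limma adjusted p = 0.107), and 0.38 without replicate 3 (0.0858). Casp12, an inflammatory-group caspase linked to the endoplasmic reticulum in mice, had the lowest change of the family, at -0.26 (SE 0.13, limma adjusted p = 0.326). It read 5.85, 6.52, 5.98 and 6.25 in denervated muscles, against 6.29, 6.35, 6.42 and 6.57 in innervated muscles, and the groups overlapped. Casp1, Casp4 and Casp12 follow each other on chromosome 9 with no other protein-coding gene between them in the RefSeq order, so the neighbours Casp4 and Casp12 had changes of 1.24 and -0.26.

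The caspases of the apoptotic cascade did not pass. Casp8, the initiator of death receptors, read 6.27, 6.16, 6.99 and 6.00 in denervated muscles, against 6.31, 6.07, 6.13 and 5.99 in innervated muscles. Only denervated 3 lay above the innervated arrays, and the change was 0.23 (SE 0.16, limma adjusted p = 0.508), against 0.02 without replicate 3. Casp9, the initiator downstream of mitochondria, had a change of 0.06 (95% interval -0.24 to 0.35), and -0.02 without replicate 3. Casp2 had -0.13 (95% interval -0.43 to 0.16). Casp6, an executioner caspase, had 0.32 (SE 0.17, limma adjusted p = 0.363), and 0.15 without replicate 3. Casp14, a caspase of the epidermis, was also dim and had -0.15, and Casp8ap2, no caspase itself, had 0.13.

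No Bcl2 family symbol rose or fell among 16 (limma), against 3.56% and 4.89% of all genes. At an unadjusted p under 0.05, 2 were higher and 1 lower, against 10.2% and 11.5% of all genes. The median change of the family was 0.02, and every change in it lay between -0.29 and 0.34. The BH3-only gene Bbc3, which encodes the p53 target PUMA, had the highest, at 0.34 (SE 0.11, limma adjusted p = 0.104). It read 6.15, 6.18, 6.35 and 6.35 in denervated muscles, against 5.98, 5.76, 5.88 and 6.05 in innervated muscles, with no overlap. Bbc3 passed with the dimmest 50% of genes left out (limma adjusted p = 0.0494), where 4 of the 26 members kept rose (15.4%, against 9.87% of all genes kept) and none fell (against 12.7%). Bcl2l11, the BH3-only gene of Bim, had a change of -0.01 (95% interval -0.25 to 0.24). The pore-forming Bak1 had 0.17 (95% interval -0.09 to 0.43).

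The anti-apoptotic genes had changes of 0.02 for Bcl2, 0.13 for Bcl2l1, which encodes Bcl-xL, and -0.23 for Bcl2l2, which encodes Bcl-w. Bcl2 read 6.77, 6.43, 6.75 and 6.39 in denervated muscles, against 6.50, 6.51, 6.66 and 6.59 in innervated muscles, so that the denervated values lay on both sides of the innervated ones. Its 95% interval was -0.26 to 0.29, and that of Bcl2l1 was -0.11 to 0.37. Bnip3 and Bnip3l encode receptors that mark mitochondria for autophagy and were bright. Bnip3l read 9.49, 8.99, 8.76 and 8.93 in denervated muscles, against 8.99, 8.76, 8.51 and 8.77 in innervated muscles. In each pair the denervated array was the higher, by 0.16 to 0.49, but the groups overlapped and the change of 0.28 (SE 0.11) missed the threshold (limma adjusted p = 0.177). Bnip3 was also higher in all 4 pairs, by 0.56 in replicate 1 and by 0.03 to 0.08 in the others, with a change of 0.18 (SE 0.13, limma adjusted p = 0.507). Bnip5 had the lowest change, -0.29 (limma adjusted p = 0.157), while Bnip2, at 9.80 ± 0.07 in denervated and 9.99 ± 0.05 in innervated muscle (SD, n = 4 each), had a change of -0.19 with no overlap. The other symbols, Bcl2l10, Bcl2l12, Bcl2l13, Bcl2l14, Bnip1 and Bnipl, had changes between -0.04 and 0.12.

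**Figure D3:**
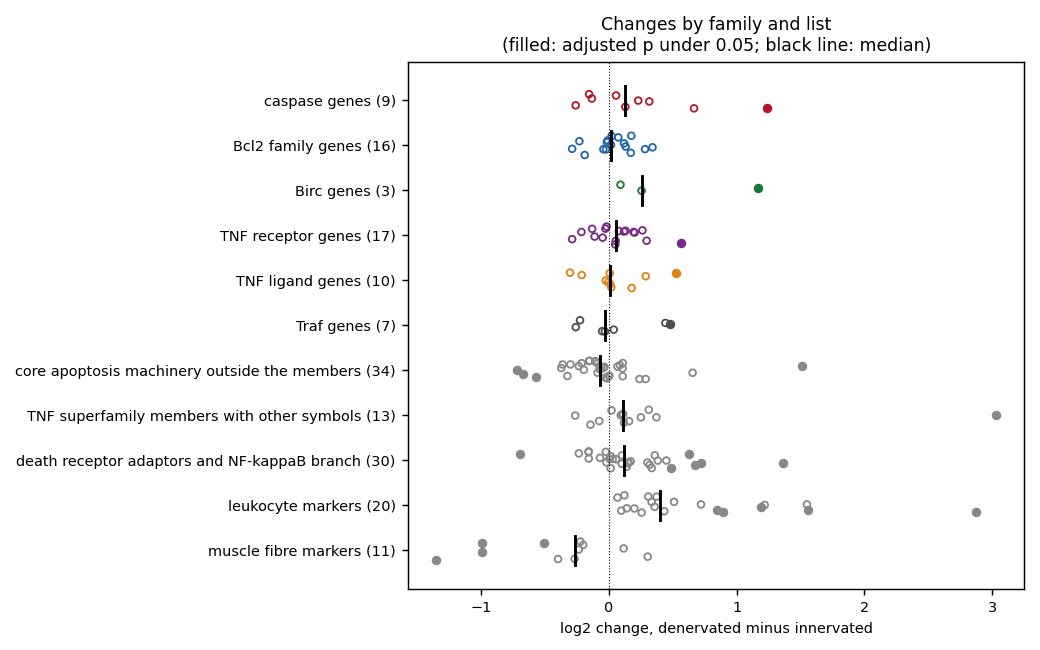
Log2 change, denervated minus innervated, of the genes in each of the 6 families and, in grey, in 3 pathway lists and 2 marker lists; filled points passed an adjusted p of 0.05 and black lines are medians. The 16 Bcl2 family symbols lie between -0.29 and 0.34 with none filled, and 1 gene in each of the other 5 families is filled, at 0.48 to 1.24. Among all genes 8.45% passed.

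Genes that act with these families but carry other symbols were described from 3 lists. Of 30 measured death receptor adaptors and NF-kappaB genes 5 rose and 1 fell, with a median change of 0.12. Among all genes tested, 3.56% rose and 4.89% fell. The deubiquitinase Cyld, which removes the ubiquitin chains built by Traf and Birc proteins, rose by 1.36 (SE 0.12, limma adjusted p = 0.00114), to 8.87 ± 0.27 in denervated muscle, against 7.51 ± 0.09 in innervated muscle (SD, n = 4 each). The NF-kappaB subunit genes Nfkb2 and Rel rose by 0.63 and 0.67, the deubiquitinase Otulin by 0.72 and the kinase Tbk1 by 0.49 (limma adjusted p of 0.0122, 0.0483, 0.0423 and 0.0268), while the adaptor Tab2 fell by 0.70 (0.0133). Otulin and Rel missed the threshold without the block (0.121 and 0.0975) and, like Tbk1, Nfkb2 and Tab2, with single replicates left out (0.0611 to 0.139), whereas Cyld passed throughout. The inhibitor Tnfaip3, a classical NF-kappaB target, had a change of -0.16, and Nfkbia one of 0.15. Of 13 TNF superfamily members with other symbols, the ectodysplasin receptor Eda2r rose, by 3.03 (SE 0.28, limma adjusted p = 0.00125), and none fell, Fas having a change of 0.11. Eda2r read 9.14, 9.10, 7.13 and 9.25 in denervated muscles, against 5.81, 5.84, 5.31 and 5.51 in innervated muscles.

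Of 34 measured genes of the core apoptosis machinery 1 rose and 3 fell (3.56% and 4.89% of all genes), with a median change of -0.07. The protease Gzmb of cytotoxic lymphocytes rose by 1.51 (SE 0.31, limma adjusted p = 0.0249), and by 1.83 without replicate 3. The mitochondrial channels Vdac1 and Vdac2 fell by 0.67 and 0.72 and the mitochondrial nuclease Endog fell by 0.57 (limma adjusted p of 0.0226, 0.00854 and 0.0237), Vdac1 and Endog with 0.120 and 0.110 without the block. All 4 missed the threshold without replicate 1, and Gzmb, Vdac1 and Endog also without replicate 2 or 4 (0.0532 to 0.130). The apoptosome gene Apaf1 had a change of 0.09, the caspase inhibitor Xiap -0.11 and the anti-apoptotic Mcl1 -0.30. Prf1, another gene of cytotoxic lymphocytes, did not follow Gzmb, with a change of -0.0005 (limma adjusted p = 0.999). The leukocyte markers Cd8a, Nkg7 and Ncr1, at 0.31, 0.12 and 0.07, did not pass either.

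Leukocyte markers differed in the same comparison. Of 20 measured, 5 rose and none fell, while among all genes 3.56% rose and 4.89% fell. The median change of the leukocyte markers was 0.40. It was 0.28 without replicate 3, where 6 rose, against 5.8% of all genes. Those 6 were Ptprc, Cd68, Tyrobp, Fcer1g, Laptm5 and S100a8. No lymphocyte marker passed without replicate 3. Ms4a1 then had -0.31, Cd3e -0.27, Nkg7 -0.11, Ncr1 -0.04, Cd3g 0.03, Cd4 0.03, Cd8a 0.05 and Cd79a 0.21. The summed linear intensity of the list was 1830 to 4433 on the denervated arrays and 980.3 to 1181 on the innervated arrays. The highest sum was that of denervated 3, and the other denervated arrays reached up to 2215. The scale has no zero, and 4 of the 20 were dim. Without the block 3 leukocyte markers rose, Laptm5 and S100a8 missing the threshold (limma adjusted p of 0.158 and 0.0631). Among all genes 2.19% then rose and 3.19% fell. Of the 11 muscle fibre markers 4 fell and none rose, and of 10 endothelial markers 2 fell and none rose, against 3 and 1 without the block, where Myl1 and Emcn were lost (0.0519 and 0.0679). Of 6 Schwann cell markers the myelin gene Pmp22 fell by 1.63 (limma adjusted p = 0.00789, and 0.0816 without the block). Of 8 fibroblast markers the matrix gene Lum rose by 0.60 (limma adjusted p = 0.0115), but 6 of the 8 had negative changes. Among these, Col1a1 at -0.49 and Col1a2 at -0.46 missed the threshold. Both fell without replicate 3, by 0.67 and 0.63 (limma adjusted p of 0.00846 and 0.0190). Of 2 erythrocyte markers the haem synthesis gene Alas2 fell by 0.66 (limma adjusted p = 0.0219). None of 6 satellite cell or 5 adipocyte markers passed (limma); at an unadjusted p under 0.05 these were 0 satellite cell markers and 1 adipocyte marker. The part of these cell types in the members' changes was not tested either. The macrophage gene Cd68 rose by 1.19 (SE 0.10, limma adjusted p = 0.00104), and by 1.20 without replicate 3. The macrophage and monocyte genes Adgre1, Csf1r, Itgam and Cd14 had smaller changes of 0.43, 0.37, 0.33 and 0.14. They missed the threshold (limma adjusted p of 0.0564 to 0.638). Besides Cd68, the leukocyte markers that rose were Tyrobp, Fcer1g, Laptm5 and S100a8, by 0.84 to 2.87. Casp1, Casp4, Birc3, Tnfsf9 and other members are expressed by leukocytes as well as by other cells, and the part of leukocytes in their changes was not tested. In muscle homogenates, a different number of cells of a type cannot be told apart from a different amount of RNA per cell. By pair, Casp4 changed by 1.20 in replicate 3 and by 0.63 to 1.69 in the others, Birc3 by 1.09 in replicate 3 and by 0.80 to 1.46 in the others, and Cd68 by 1.16 in replicate 3 and by 1.05 to 1.35 in the others.

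**Figure D4:**
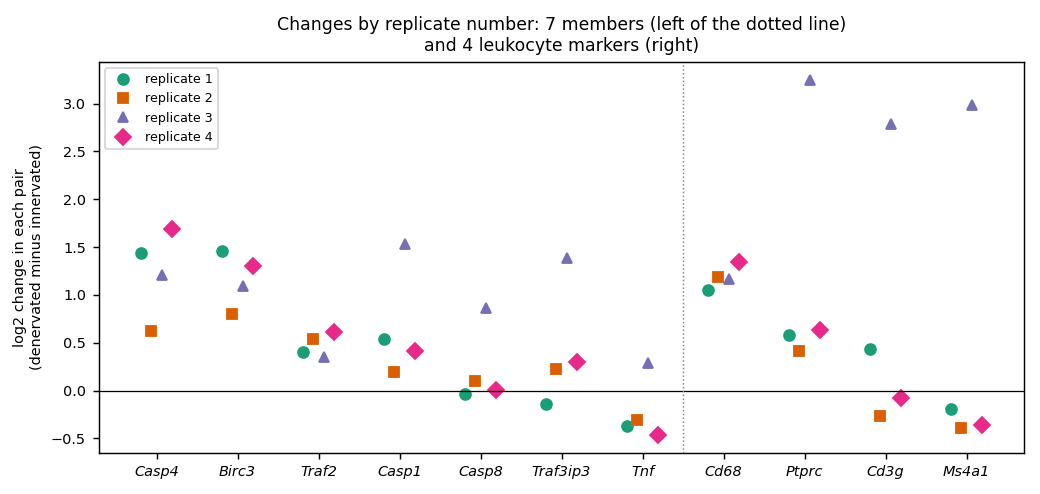
Log2 change, denervated minus innervated, in each pair of arrays with the same replicate number, for 7 members and 4 leukocyte markers. Replicate 3 (triangles) is the highest for Casp1 (1.53), Casp8 (0.86), Traf3ip3 (1.38), Tnf (0.29), Ptprc, Cd3g and Ms4a1, but not for Casp4 (1.20), Birc3 (1.09), Traf2 (0.35) or Cd68.

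Replicate 3 moved more members than these. Denervated 3 was the highest of the denervated arrays for 37 of the 62 members (59.7%), against 47.5% of all genes. Leaving out the arrays of replicate 3 lowered the change of 14 members by over 0.1 and raised that of 4, namely Tnfsf18, Tnfrsf21, Tnfsf4 and Tnfsf10. The median over the members was then -0.01. The members were on the whole not bright: 6 of 62 (9.68%) had a mean above the upper quartile of every array, against 24.3% of all genes, and 8 (12.9%) a mean below the lower quartile of every array, against 19.6%. The bright members were Bak1, Bnip2, Bnip3, Bnip3l, Birc6 and Tnfrsf21.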

How the data were processed

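The table the authors deposited holds log2 intensities. The submitters' processing notes name GCOS, RMA and the build mm9; the sources used here give neither versions nor filters. Per the labels' protocols, 50 ng of RNA was amplified, labelled with biotin and hybridised to 1 array per sample. There are no detection values, and precision is limited by the number of arrays. Of 16755 probe sets, 14996 had 1 gene symbol, 1019 several and 740 none; the brightest probe set per gene left 14860 genes. All 62 member IDs were found in RefSeq under the same symbol, on GRCm38.p6, so coordinates are given for promoter windows of that assembly only.

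The fit was limma 3.58.1 in R 4.3.3 with group and replicate number as terms, default empirical Bayes, two-sided, with Benjamini-Hochberg adjustment over all genes; it was tested on simulated data. The block follows the submitters' design, in which denervated muscle is set against the contralateral one. No label ties equal numbers to the same mouse, and residuals of same-numbered arrays correlated at 0.234, -0.0303, 0.453 and 0.349. No label says either that a group's arrays stem from different mice: the p-values then reflect only how these samples vary, which may be technical. Members, gene lists and tests were chosen with earlier results of these data known. Named members are those called, the largest change in each direction per family, and a set of textbook genes of these families; other members were named after their values were seen. The alternatives were no block, 3 other scalings, a filter on dim genes, probe set means, robust moderation with a trend, weights per array, and leaving out the arrays of each number in turn.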

Additional observations from a re-analysis of the deposited data

Results flagged for a closer look

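Tnf in denervated replicate 3 was far from the rest of its group, at a log2 intensity of 5.56 against 4.64 to 4.75 on the other 3 denervated arrays. Its gap to the nearest array was 0.883 of the range of the 4 arrays, above Dixon's critical value for 4 samples at the 95% level. It was the only value so marked in 54 groups of 4 arrays tested for the 27 named members, where chance alone marks about 1 group in 20. The innervated arrays read 5.05 to 5.27. Denervated 3 is also the array with the highest summed leukocyte markers and the narrowest spread of intensities. The part of either in this value was not tested.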

How the results depend on the processing

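Birc3 rose under all 12 alternatives and Casp4 under all but the one without replicate 1. The labels do not show that replicate numbers pair the muscles. Without the number as a block, 2.19% of all genes rose and 3.19% fell. Then 2 members rose in place of 5, with 0 among the receptors, 0 ligands and 0 Traf genes. In the lists 1 core apoptosis gene fell and 3 genes of the NF-kappaB list rose. That list also had 3 genes higher after quantile normalization or median centring. Leaving out the dimmest 50% of genes kept 26 members, of which 4 rose (15.4%, against 9.87% of all genes kept), with 1 in the Bcl2 family (Bbc3), 0 ligands and 0 Traf genes. The median change was then 0.13 over the members, 0.63 for Birc, 0.20 for receptors and 0.18 for the 1 ligand kept, and 0 core apoptosis genes rose and 5 fell. Trended and robust moderation left 0 ligands higher, and array weights gave 2 receptors. With 1 replicate number left out, 1 to 5 members rose (1.61% to 8.06%, against 0.922% to 5.8% of all genes), including 0 to 1 caspase, 0 to 2 receptors, 0 ligands and 0 to 1 Traf gene; the median ranged from -0.023 to 0.25 for caspases, 0.13 to 0.42 for Birc, 0.025 to 0.14 for receptors, -0.044 to 0.057 for ligands and -0.18 to 0.11 for Traf genes. In the core apoptosis list 0 to 1 rose and 0 to 3 fell, and in the NF-kappaB list 1 to 6 rose and 0 to 1 fell. Among all genes 0.922% to 5.8% rose and 1.41% to 5.26% fell. Changes near 0 turned sign: Bcl2 had -0.039 and Bcl2l11 0.0024 with array weights, and with single replicates left out Bcl2 ranged from -0.068 to 0.090, Bcl2l11 from -0.063 to 0.034 and Casp9 from -0.023 to 0.17. The cause of these shifts was not tested. Over the named members and alternatives, 288 values kept direction and call, 15 lost and 3 gained the call, and 7 turned sign. With 4 arrays a group and no detection calls, small changes of dim genes are not resolved.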
